A study of Mus musculus with 36 samples.

Results

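The 40 genes described here encode proteins of DNA replication and cell division, and they were chosen by symbol, each read through its probe of highest mean signal. All 40 were on the arrays, among 36799 gene names, and 36 of them were bright enough in the lung channel to be tested, among 23255 gene names. A dividing cell first loads and fires replication origins and makes nucleotides in S phase, driven by cyclin E and cyclin A. It then builds a spindle, attaches chromosomes to it through kinetochores, and divides under mitotic kinases and a checkpoint that waits for attachment. Most cells of an adult lung are out of cycle, and resident macrophages, type II cells and other cells can re-enter it after injury.

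Female C57BL/6 mice, 5 to 7 weeks old, received a single intratracheal instillation of tube-shaped titanium dioxide nanoparticles (Tube TiO2NPs) in 40 µl, and RNA from random sections of the lung was taken at day 1 or day 28. The arrays of day 1 came from 4 mice given no particles (0 µg, control), 3 given 18 µg, 3 given 54 µg and 4 given 162 µg. Those of day 28 came from 3 control mice and, per dose, 4 mice. The labels speak of 5 samples per group for the RNA. Each array set lung RNA in Cy5 against a pooled reference from 11 cell lines of the mouse in Cy3, and a level is given here as log2(lung/reference), so a difference of 1 is 2-fold. A level below 0 means less signal in the lung than in the reference. These are bulk tissue samples, in which a change in the number of dividing cells and a change in RNA per cell cannot be told apart. Mice are separate animals, so p-values reflect the spread between mice, together with that between arrays, slides and lung sections.

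The 29 mice were on 36 arrays, 7 of them on 2 arrays that were averaged. Between 48.6% and 62.2% of an array's probes stood well above background in the lung channel, and 10 of 10 markers of alveolar type II cells, a defining cell type of the lung, passed the same filter. Transcripts of skeletal muscle stood apart on 12 arrays, where the mean log2 Cy5 over a muscle list was 10.18 to 14.87, against 7.13 to 8.08 on the other 24. Of these 12, 8 also carried transcripts of squamous epithelium. At day 1 mice with such an array numbered 4 of 4 in control and 1 of 3, 1 of 3 and 1 of 4 at 18, 54 and 162 µg. At day 28 they numbered 0 of 3 in control and 1 of 4, 3 of 4 and 0 of 4 at these doses. For 1 mouse, 162 µg day 28 replicate 1, titles say day 1 and the time label says day 28, and it was kept in day 28. Its 2 arrays differed by 0.49 in the mean level of the 36 tested members (-3.25 and -2.76).

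Not tested were 4 members. Cyclin E2 (Ccne2) and the passenger complex kinase Aurora B (Aurkb) were above background on 0 of 36 arrays, and Cdk1, the kinase that drives entry into mitosis, on 18 of 36. Group means of log2(lung/reference) for Ccne2, Aurkb and Cdk1 lay between -0.33 and 0.05, so their probes gave similarly little signal in the reference. Such dim probes do not show that these genes are low in the lung. The origin licensing factor Cdc6 was above background on 2 of 36 arrays, both of 162 µg mice at day 1. Its log2 Cy5 intensity was 6.52, 6.98, 6.43 and 6.44 in the 162 µg mice, against 6.07, 6.28, 6.30 and 5.89 in the control mice of day 1. As log2(lung/reference), Cdc6 was at -0.84, -0.72, -0.92 and -0.90 in the 162 µg mice, against -1.19, -1.08, -1.09 and -1.36 in these control mice. In both measures the lowest 162 µg value lay above the highest control value, near background. In log2(lung/reference), 4.22% of the genes tested showed this separation. No tested member passed the filter only through the 162 µg mice of day 1. The dimmest, the microtubule depolymerase Kif2c and the kinetochore protein Ndc80, were above background on 25 and 22 of 36 arrays, including every array of the 54 µg mice at day 1 and of the 162 µg mice at day 28.

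One day after 162 µg, genes of DNA replication rose in the lung while most mitosis genes did not pass the test. Of the 36 tested members 8 rose and 0 fell against control (limma, adjusted p under 0.05), while 1.5% of all genes tested rose. Of the 8 tested members for replication and nucleotide supply, 6 were among them, and so were 2 of the 28 others. The median log2 change was 0.89 for the first set and 0.36 for the second. Over the 36 it was 0.46, with 34 above 0 and a range of -0.11 for Kif2c to 0.97 for Gins1, against a median of 0.01 over all genes. In 13 members every 162 µg mouse lay above every control mouse, which 4.22% of all genes did. At an unadjusted p under 0.05 were 23 members (63.9%), against 13% of all genes.

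**Figure D1:**
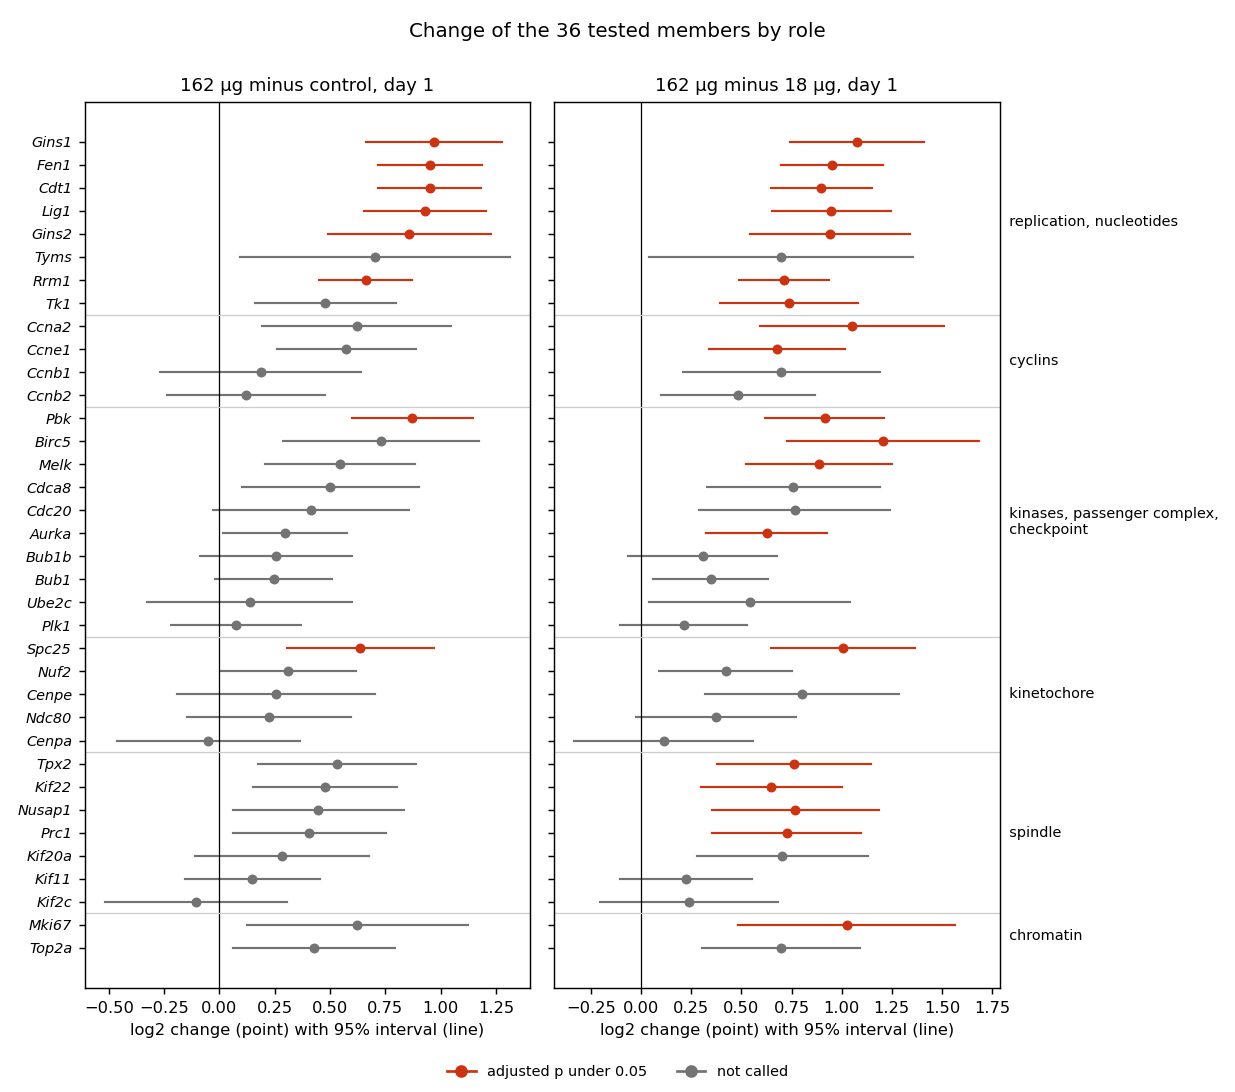
Log2 change (points, with 95% intervals as lines) of the 36 tested members, grouped by role, for 162 µg minus control and 162 µg minus 18 µg at day 1. Members with an adjusted p under 0.05 are red, 8 in the left panel and 19 in the right, and 6 of the 8 on the left stand in the replication and nucleotide block at the top.

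The licensing factor Cdt1, which helps load the replicative helicase onto origins, was at -2.13, -2.02, -2.48 and -2.19 in the 162 µg mice, against -3.20, -2.99, -3.13 and -3.30 in the control mice. All 4 treated mice lay above all 4 control mice. The rise was 1.93-fold (log2 change 0.95, SE 0.11, adjusted p = 3.13e-05). Gins1 and Gins2 encode subunits of the GINS complex, which activates the loaded helicase. Gins1 was at -1.48, -1.34, -1.89 and -1.63 in the 162 µg mice, against -2.72, -2.12, -2.70 and -2.68 in the control mice, a log2 change of 0.97 (SE 0.15, adjusted p = 0.000455). The groups did not overlap, with control replicate 2 well above the other control mice. Gins2 was at -2.05, -2.36, -2.37 and -2.15 in the 162 µg mice, against -3.07, -2.96, -2.87 and -3.46 in the control mice. Again every treated mouse was higher, and the log2 change was 0.86 (SE 0.18, adjusted p = 0.00953). Leaving out 162 µg replicate 1 ended the Gins2 call (adjusted p = 0.0516), as did leaving out control replicate 4, at an adjusted p of 0.0538.

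Fen1, the flap endonuclease that trims Okazaki fragments, was at -1.13, -1.22, -1.59 and -1.16 in the 162 µg mice, against -2.32, -2.09, -2.30 and -2.20 in the control mice. Lig1, the DNA ligase that joins these fragments, was at -1.40, -1.35, -1.61 and -1.12 in the 162 µg mice, against -2.42, -2.02, -2.35 and -2.41 in the control mice. In both genes the groups were separate, and 162 µg replicate 3 was the lowest treated mouse. Fen1 rose 1.93-fold (log2 change 0.95, SE 0.11, adjusted p = 3.13e-05) and Lig1 1.91-fold (log2 change 0.93, SE 0.13, adjusted p = 0.000268). Rrm1, the large subunit of ribonucleotide reductase, was at -2.11, -2.11, -2.36 and -2.13 in the 162 µg mice, against -2.78, -2.90, -2.96 and -2.71 in the control mice. It rose 1.58-fold without overlap (log2 change 0.66, SE 0.10, adjusted p = 0.000455).

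Of the nucleotide genes, thymidine kinase (Tk1) and thymidylate synthase (Tyms) did not pass. Tk1 was at -1.29, -1.27, -1.47 and -1.42 in the 162 µg mice, against -1.82, -1.46, -2.17 and -1.91 in the control mice. One control mouse, replicate 2, reached into the treated range, and the log2 change was 0.48 (SE 0.15, adjusted p = 0.133). Tyms was at -0.57, -0.90, 1.41 and -0.71 in the 162 µg mice, against -0.78, -0.85, -0.80 and -1.15 in the control mice. The groups overlapped, 1 treated mouse, replicate 3, lay far above all others, and the log2 change was 0.70 (SE 0.30, adjusted p = 0.302). Without the muscle arrays, of which that mouse has 1, the change was -0.10.

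**Figure D2:**
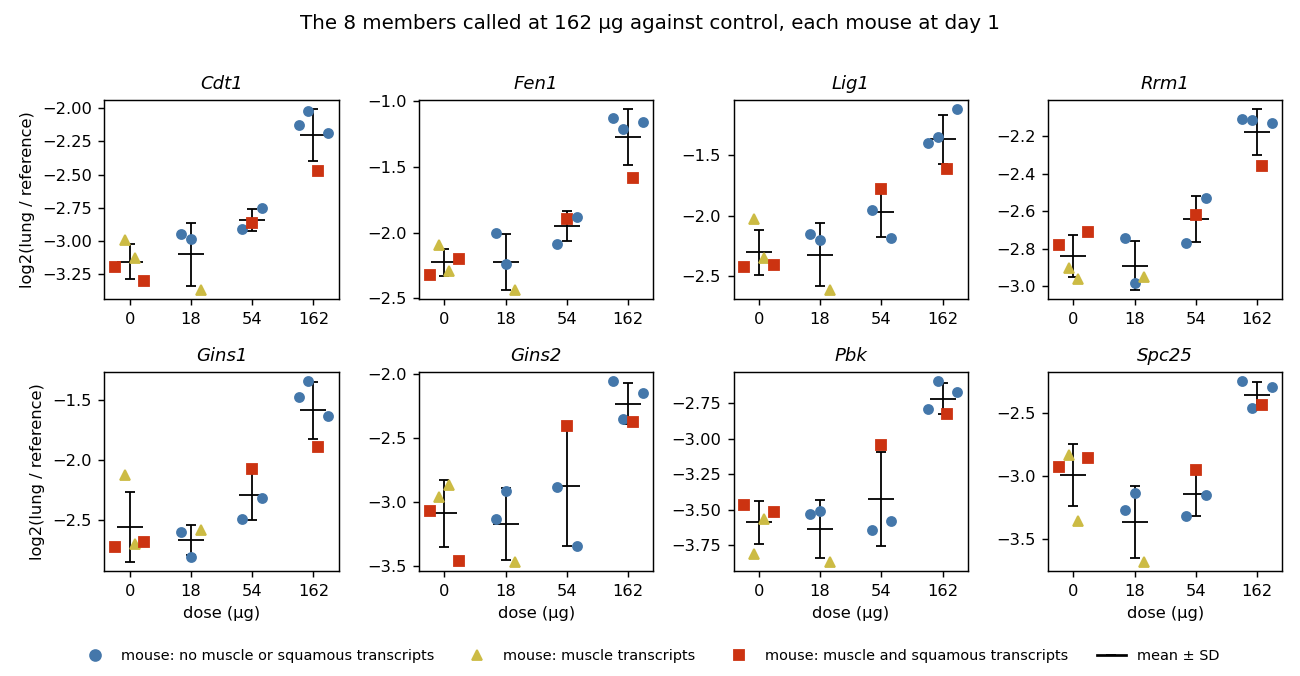
Log2(lung/reference) of each mouse at day 1 by dose for the 8 members that rose at 162 µg against control, with bars for mean ± SD. Mice with muscle transcripts, or muscle and squamous transcripts, on an array are drawn as triangles and squares, and in each panel all 4 mice at 162 µg lie above all 4 control mice.

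Outside replication, Pbk and Spc25 rose. Pbk, a kinase of mitotic cells, was at -2.79, -2.59, -2.82 and -2.67 in the 162 µg mice, against -3.47, -3.81, -3.57 and -3.51 in the control mice. The 4 treated mice lay close together above all control mice, and the log2 change was 0.87 (SE 0.13, adjusted p = 0.00044). Spc25, a subunit of the NDC80 complex that binds spindle microtubules, was at -2.24, -2.46, -2.44 and -2.29 in the 162 µg mice, against -2.93, -2.83, -3.36 and -2.86 in the control mice. These groups were separate too, with a log2 change of 0.64 (SE 0.16, adjusted p = 0.0405). This call is near the threshold: it was lost under 18 of 46 alternatives, with an adjusted p of up to 0.238. Among them was leaving out 1 mouse of either group, 162 µg replicates 1, 2 or 4 or control replicates 1, 3 or 4 (adjusted p = 0.0614 to 0.139).

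Among the 4 tested cyclins none passed, with a median log2 change of 0.38. Ccne1, cyclin E1 of the G1/S transition, was at -0.92, -0.78, -1.13 and -0.96 in the 162 µg mice, against -1.61, -1.03, -1.82 and -1.63 in the control mice. Control replicate 2 reached into the treated range, and the log2 change was 0.57 (SE 0.15, adjusted p = 0.0517). Leaving out control replicate 2 gave 0.74 (adjusted p = 0.00474). Ccna2, cyclin A2 of S and G2 phase, had a log2 change of 0.62 (SE 0.21, adjusted p = 0.152), while the B cyclins of mitosis, Ccnb1 and Ccnb2, had 0.19 and 0.12.

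Of the 10 tested kinases, passenger complex and checkpoint genes, Pbk alone passed, and the median was 0.36. Birc5, or survivin, part of the chromosomal passenger complex, was at -2.74, -2.64, -2.39 and -2.42 in the 162 µg mice, against -3.34, -3.10, -3.70 and -2.98 in the control mice. The groups did not overlap, but the spread between mice was wide, and the log2 change of 0.73 did not pass (SE 0.22, adjusted p = 0.0917). Melk, a kinase of dividing cells, had 0.54 (adjusted p = 0.0991) and Cdca8, or borealin of the passenger complex, 0.50. The spindle pole kinase Aurka had 0.30, and Plk1, which acts throughout mitosis, had 0.08 (95% interval -0.22 to 0.37). The checkpoint genes Bub1 and Bub1b had 0.24 and 0.25, and Cdc20 and Ube2c, which act with the anaphase-promoting complex, had 0.41 and 0.14.

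Kinetochore members had a median of 0.26 with Spc25 as the 1 call of 5. Nuf2 and Ndc80, its partners in the NDC80 complex, had log2 changes of 0.31 and 0.22, the motor Cenpe had 0.26, and the centromere histone Cenpa had -0.05. None of the 7 spindle genes passed, and their median was 0.41. The microtubule-binding proteins Tpx2, Nusap1 and Prc1 had 0.53, 0.45 and 0.41, and the motors Kif22, Kif20a and Kif11 had 0.48, 0.28 and 0.15. Mki67, the gene of the Ki-67 proliferation marker, was at -3.20, -2.90, -2.55 and -2.97 in the 162 µg mice, against -3.61, -3.62, -3.89 and -2.99 in the control mice. Control replicate 4 lay inside the treated range, and the log2 change was 0.62 (SE 0.24, adjusted p = 0.248). Top2a, the topoisomerase that untangles replicated chromosomes, had 0.43 (adjusted p = 0.289).

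The 28 members outside replication are called mitosis members here, though they include the cyclins Ccne1 and Ccna2 of earlier phases. At day 1 the spread between mice was wider in the mitosis members than in the replication members at each dose. The mitosis members also had a higher median on arrays with squamous transcripts. Averaged over the 8 replication members, the 162 µg mice were at -1.52, -1.57, -1.54 and -1.56, against -2.39, -2.18, -2.41 and -2.48 in the control mice of day 1. Averaged over the 28 others, they were at -2.78, -2.72, -2.42 and -2.68, against -3.05, -2.92, -3.25 and -2.84 in the control mice. Neither pair of groups overlapped, but the gap was wide in the first and narrow in the second. Leaving out the 162 µg mice of day 1, the 7 arrays with squamous transcripts had a median of -2.80 over the 28 members (-3.24 to -2.70), against -3.25 (-3.50 to -2.84) on the other 24. For the replication members these medians were -2.44 (-2.59 to -2.03) and -2.36 (-2.58 to -2.13), close to each other. Of the 7 squamous arrays 4 were of 54 µg mice of day 28, so group and squamous transcripts are not separate. In that group the squamous mice had means of -2.94, -2.80 and -3.24 over the 28 members. The mouse without squamous transcripts was at -3.03.

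One control mouse of day 1, replicate 1, had an array with muscle and squamous transcripts and an array without, both of its own RNA. On the array with them, 27 of the 28 mitosis members were higher, by a median of 0.60 (-0.18 to 1.14), and 3 of the 8 replication members were, with a median of -0.15. The median over all genes was -0.02. These 2 arrays also differed in slide and scan session (slide 4 and session 3 against slide 3 and session 1), so slide and squamous transcripts cannot be told apart in this mouse. In 7 of 7 mice with 2 arrays the array on slide 4 had the higher mean over the 28 mitosis members. For 162 µg day 28 replicate 1, with neither muscle nor squamous transcripts on either array, that mean was -2.92 on slide 4 and -3.47 on slide 3. At 162 µg 1 of 4 mice (replicate 3) had a squamous array, and 2 of 4 control mice did (replicates 1 and 4). Over the squamous list itself, 0 of 15 tested genes were called and 15 had a negative log2 change, with a median of -0.72. For the muscle list it was 0 of 19 called, 19 negative and a median of -2.23.

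Without the 12 muscle arrays, 12 members rose at 162 µg against control, 5 for replication and 7 others, in a fit that holds 3 treated mice and a lone control mouse, taken to vary like the rest. Mki67, Ccna2 and Birc5 each had a log2 change of 1.14, Melk 1.17, Cdca8 0.79 and Nusap1 0.57. Gins2 had 0.78 and Spc25 0.75, and neither was among the members that rose in this fit. Without the 8 squamous arrays only, which leaves 3 treated and 3 control mice, 14 members rose, 6 for replication and 8 others. Control replicate 1 was again read through its slide 3 array alone. This last setting was chosen after seeing the data. In it Mki67 had 0.87 (adjusted p = 0.0141) and Nusap1 0.51 (adjusted p = 0.00825), and Cdt1, Fen1, Lig1, Rrm1, Gins1, Gins2, Pbk and Spc25 were all called.

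**Figure D3:**
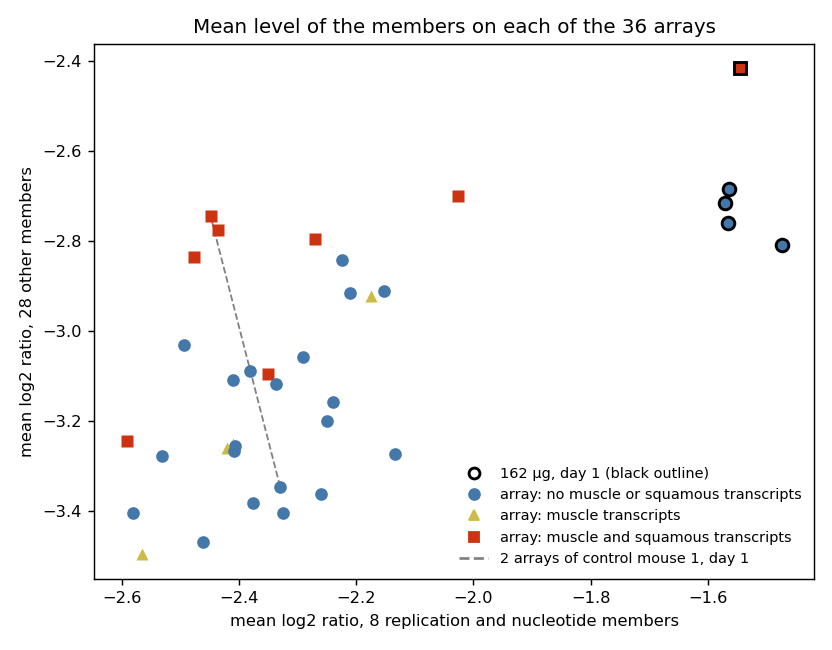
Mean log2(lung/reference) on each of the 36 arrays, of the 8 replication and nucleotide members (x axis) and of the 28 other members (y axis), with symbols for muscle and squamous transcripts and a black outline for the 5 arrays of 162 µg at day 1. Those 5 arrays stand apart to the right, while squamous arrays elsewhere lie mostly high on the y axis, and a dashed line joins the 2 arrays of control mouse 1 of day 1.

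Slides of arrays held both groups 5 times. On slides 3 and 4 these were the same mice, 162 µg replicate 1 and control replicate 1, so these slides are not independent. On these 5 slides the median difference over the replication members, 162 µg minus control at day 1, was 0.70 to 1.04, and over the others -0.04 to 0.82. Cdt1 differed by 0.65 to 1.26 and Mki67 by -0.07 to 1.34. With the slide as a block 10 members rose, Ccne1 (adjusted p = 0.0158) and Tk1 in addition to the 8.

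Against the lower doses the same mice were compared again, so these comparisons share the 162 µg mice with the one above. For 162 µg against 18 µg at day 1, 19 of 36 members rose and 0 fell, while 1.69% of all genes rose. All 36 had a positive log2 change with a median of 0.72, and in 27 every 162 µg mouse lay above every 18 µg mouse, as 7.76% of all genes did. Fen1 was at -1.13, -1.22, -1.59 and -1.16 in the 162 µg mice, against -2.01, -2.24 and -2.43 in the 18 µg mice, a log2 change of 0.95 (SE 0.12, adjusted p = 0.000123). Cdt1 was at -2.13, -2.02, -2.48 and -2.19 in the 162 µg mice, against -2.95, -2.98 and -3.37 in the 18 µg mice, a log2 change of 0.90 (SE 0.12, adjusted p = 0.00022). Neither gene overlapped between the doses. By role the calls were 7 of 8 for replication and nucleotides, with Tyms not passing, 2 of 4 cyclins, 4 of 10 kinase, passenger and checkpoint genes, 1 of 5 kinetochore genes, 4 of 7 spindle genes and 1 of 2 chromatin genes.

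Members outside replication that rose at 162 µg against 18 µg included Birc5 (log2 change 1.21, adjusted p = 0.00456), Ccna2 (1.05, 0.0103), Mki67 (1.02, 0.0388), Spc25 (1.01, 0.00169) and Aurka (0.63, 0.0215). Mki67 was at -3.20, -2.90, -2.55 and -2.97 in the 162 µg mice, against -4.00, -3.64 and -4.15 in the 18 µg mice. Its groups did not overlap, and 2 of the 3 mice at 18 µg lay below every control mouse of day 1. No 18 µg mouse had a squamous array, against 1 of 4 at 162 µg. Without the squamous arrays 19 members rose and without the muscle arrays 17. The count was 7 without 18 µg replicate 3, 11 without 18 µg replicate 1 and 12 without 162 µg replicate 2. With median centring it was 4, and with only the 2 groups in the fit 6. With the slide as a block it was 16, with Nusap1 (adjusted p = 0.0503), Mki67 (adjusted p = 0.0578) and Prc1 (adjusted p = 0.0619) no longer past the threshold.

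For 162 µg against 54 µg at day 1, limma called 0 of 36 members and 0.0043% of all genes as higher, with 27 members at an unadjusted p under 0.05 (75%, against 4.7% of all genes). The median log2 change was 0.53 with 36 of 36 above 0, and in 17 members every 162 µg mouse lay above every 54 µg mouse, as 3.72% of all genes did. Fen1 in the 54 µg mice was at -2.08, -1.89 and -1.88, all below the 162 µg mice, and the change of 0.68 fell short (SE 0.12, adjusted p = 0.0523). Cdt1 in the 54 µg mice was at -2.91, -2.87 and -2.75, also all below, with 0.64 (SE 0.12, adjusted p = 0.0601). When 54 µg replicate 2, a mouse with a muscle and squamous array, was left out, 7 members rose. With all mice kept, 2 rose from Cy5 intensity alone and 2 with a normexp offset of 16. Without the muscle arrays 11 rose and without the squamous arrays 6.

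At 54 µg against control, day 1, limma called 0 of 36 members and 0.0516% of all genes, with 3 members at an unadjusted p under 0.05 (8.33%, near the 7.6% of all genes). Cdt1 was at -2.91, -2.87 and -2.75 in the 54 µg mice, against -3.20, -2.99, -3.13 and -3.30 in the control mice. All 3 treated mice were higher, by a log2 change of 0.31 that did not pass (SE 0.12, adjusted p = 0.602). Lig1 was at -1.95, -1.78 and -2.19 in the 54 µg mice, against -2.42, -2.02, -2.35 and -2.41 in the control mice, and overlapped, with a log2 change of 0.33 (SE 0.14, adjusted p = 0.626). The median log2 change was 0.24 over the replication members and -0.15 over the others. It was -0.07 over all 36, and positive in 2 of 46 alternatives, up to 0.24 with median centring, which moved the median of all genes to 0.23. In 2 members, Cdt1 and Fen1, every 54 µg mouse lay above every control mouse, as 5.31% of all genes did, and in 0 members every 54 µg mouse lay below, as 3.76% of all genes did.

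At 18 µg against control, day 1, limma called 0 of 36 members and 0% of all genes, with 4 members at an unadjusted p under 0.05 (11.1%, against 4.09% of all genes). The kinetochore motor Cenpe was at -4.06, -3.54 and -4.08 in the 18 µg mice, against -3.44, -3.28, -3.75 and -2.92 in the control mice. Aurka was at -3.78, -3.54 and -3.99 in the 18 µg mice, against -3.49, -3.21, -3.69 and -3.37 in the control mice. Both overlapped, with log2 changes of -0.55 and -0.33 (adjusted p = 0.912 for each). Over the 36 members the median was -0.24 and 33 were negative, with -0.04 over the replication members and -0.32 over the others. Without the muscle arrays, in a fit with 2 treated mice and 1 control mouse, the median over the 36 was 0.15. Melk was the 1 member in which every 18 µg mouse lay below every control mouse, against 2.78% of all genes.

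Along the dose series of day 1, the mean over the replication members was -2.36 ± 0.13 in control mice, -2.42 ± 0.13 at 18 µg, -2.17 ± 0.13 at 54 µg and -1.55 ± 0.02 at 162 µg (SD, n = 4, 3, 3 and 4). Over the other members it was -3.01 ± 0.18, -3.29 ± 0.20, -3.13 ± 0.38 and -2.65 ± 0.16. The 54 µg mice split in the second set, where replicate 2 was at -2.70 and the other 2 mice at -3.34 and -3.36. At day 28 the replication means were -2.42 ± 0.11, -2.41 ± 0.14, -2.44 ± 0.14 and -2.28 ± 0.11 in the same order of dose (SD, n = 3, 4, 4 and 4). The control, 18 µg and 54 µg means of day 28 lay within 1 SD of each other. Those of the other members at day 28 were -3.16 ± 0.10, -3.27 ± 0.10, -3.00 ± 0.19 and -3.05 ± 0.20.

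**Figure D4:**
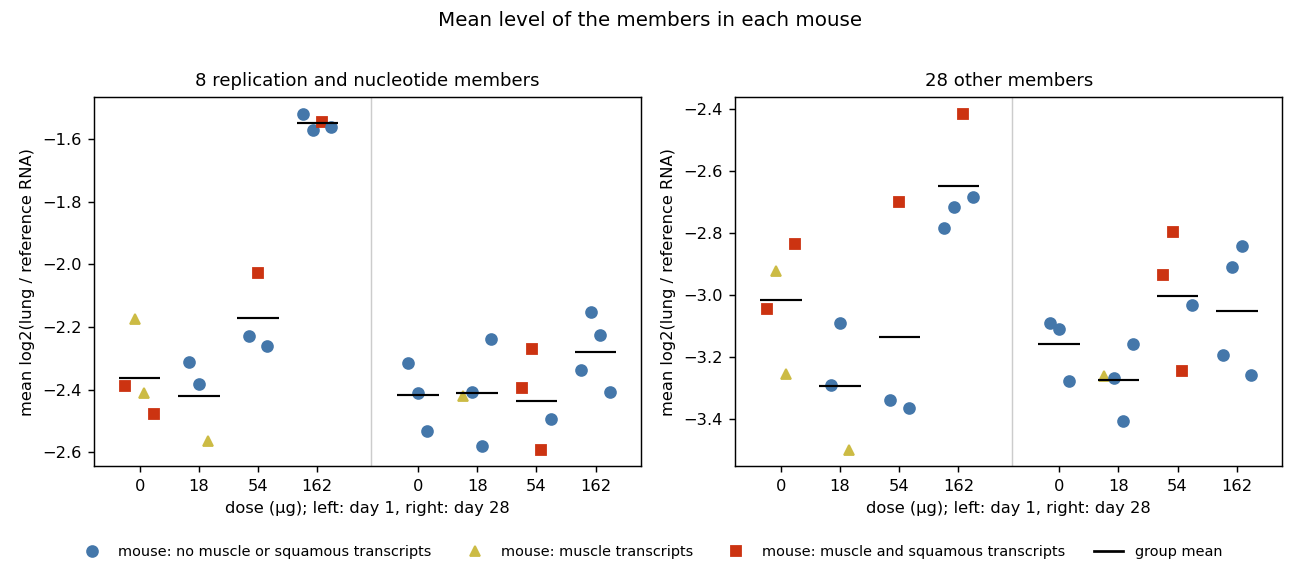
Mean log2(lung/reference) of each mouse over the 8 replication and nucleotide members (left panel) and the 28 other members (right panel), by dose at day 1 and day 28, with group means as bars. In the left panel the 4 mice at 162 µg and day 1 lie between -1.57 and -1.52, above all other mice, while in the right panel mice with squamous transcripts (squares) lie high in several groups.

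At day 28 no member passed at any dose. For 162 µg against control limma called 0 of 36, against 0.628% of all genes, with 2 members at an unadjusted p under 0.05 (5.56%, near the 4.79% of all genes). Ccne1 was at -1.48, -1.22, -1.42 and -1.43 in the 162 µg mice, against -1.66, -1.89 and -2.04 in the control mice of day 28. Cdt1 was at -2.84, -2.88, -2.78 and -2.96 in the 162 µg mice, against -3.11, -3.21 and -3.17 in the control mice. In both the 4 treated mice lay above the 3 control mice, with log2 changes of 0.48 (SE 0.16, adjusted p = 0.466) and 0.30 (SE 0.12, adjusted p = 0.766). Such separation was seen in 4 of 36 members and in 1377 of the 23255 genes tested. Fen1 had a log2 change of 0.21 and Pbk of -0.01. The median over the 36 was 0.12, and no replication member had a 95% interval reaching above 0.62.

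For 54 µg against control at day 28 limma called 0 of 36 members, against 0% of all genes, with 2 members at an unadjusted p under 0.05 (5.56%, near the 6.15% of all genes). Ccnb1 was at -3.14, -2.83, -3.75 and -3.53 in the 54 µg mice, against -3.61, -3.86 and -4.02 in the control mice. Melk was at -2.51, -2.15, -2.49 and -2.93 in the 54 µg mice, against -2.80, -2.92 and -2.94 in the control mice. Both overlapped, with log2 changes of 0.52 and 0.37 (adjusted p = 0.749 for each). Squamous arrays were those of 3 of the 4 treated mice and 0 of 3 control mice. For 18 µg against control limma called 0 of 36 members, against 0% of all genes, with 0 members at an unadjusted p under 0.05 (against 4.33% of all genes). The spindle motor Kif11 was at -3.10, -2.72, -3.30 and -2.94 in the 18 µg mice, against -2.69, -2.73 and -2.68 in the control mice. Birc5 was at -3.80, -3.96, -3.77 and -3.61 in the 18 µg mice, against -3.30, -3.41 and -3.66 in the control mice. Both overlapped narrowly, with log2 changes of -0.31 and -0.33 (adjusted p = 0.894 for each). In 4 of 36 members, Mki67, Ccna2, Cdc20 and Nusap1, every 18 µg mouse lay below every control mouse. So it was in 610 of the 23255 genes tested. In 0 members every 18 µg mouse lay above, against 443 genes.

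**Figure D5:**
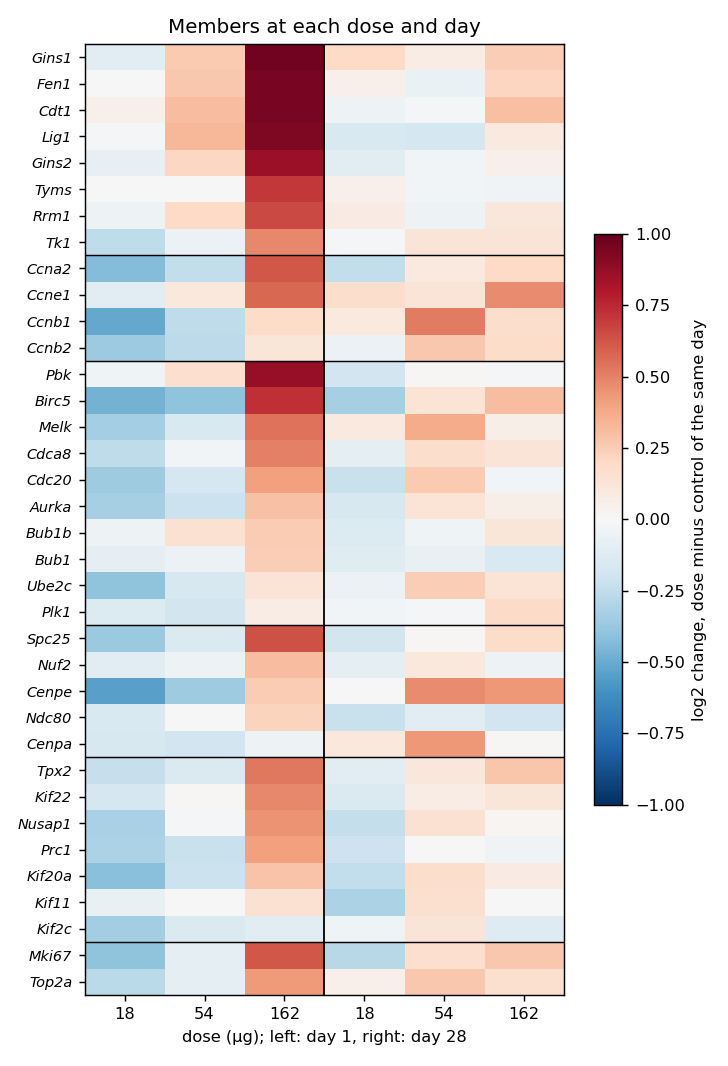
Log2 change of the 36 tested members, dose minus the control mice of the same day, with doses from low to high at day 1 (left) and day 28 (right), and members grouped by role from replication at the top to chromatin at the bottom. The darkest cells are at 162 µg and day 1, led by the replication block, where Gins1 has 0.97 and Fen1 0.95. The block is not uniform, with Tk1 at 0.48, and Pbk of the kinase block has 0.87.

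Whether the change differed between the days was tested as the day 28 change minus the day 1 change. At 162 µg limma called 0 of 36 members, against 0.0258% of all genes, with 8 members at an unadjusted p under 0.05 (22.2%, against 3.87% of all genes). The difference was -0.88 for Pbk (SE 0.20, adjusted p = 0.158) and -0.74 for Fen1 (SE 0.17, adjusted p = 0.178), with a median of -0.73 over the replication members and -0.31 over the others. Pbk was at -3.49, -3.26, -3.18 and -3.72 in the 162 µg mice of day 28, against -3.50, -3.21 and -3.49 in the control mice, which overlap. Fen1 was at -2.01, -1.90, -1.98 and -2.08 in the 162 µg mice of day 28, against -2.21, -2.07 and -2.32 in the control mice. Here 1 treated mouse, replicate 4, lay just below the highest control mouse. With all arrays in the fit and the mouse as a random block 3 members passed, each with a negative difference, and without 162 µg day 1 replicate 3 there was 1. In the random block fit the estimated correlation between arrays of a mouse was -0.03. Repeat arrays of a mouse therefore counted almost as separate mice in it.

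At 54 µg limma called 0 of 36 members in this test of days, against 0% of all genes, with 4 at an unadjusted p under 0.05 (11.1%, near the 10.2% of all genes). Cenpe had 0.83 (adjusted p = 0.489) and Lig1 -0.50 (adjusted p = 0.489). Cenpe was at -3.15, -2.59, -3.91 and -3.29 in the 54 µg mice of day 28, against -3.96, -3.33 and -3.82 in those of day 1, with overlap and a wide spread in both groups. Lig1 was at -2.40, -2.32, -2.60 and -2.41 in the 54 µg mice of day 28, against -1.95, -1.78 and -2.19 in those of day 1, without overlap. At 18 µg limma called 0 of 36 members, against 0% of all genes, with 0 at an unadjusted p under 0.05 (against 6.68% of all genes). Ccnb1 had 0.61 and Melk 0.44 (adjusted p = 0.692 for each). Ccnb1 was at -3.73, -3.49, -4.23 and -3.48 in the 18 µg mice of day 28, against -3.90, -3.84 and -4.17 in those of day 1. Melk was at -2.80, -2.71, -2.99 and -2.67 in the 18 µg mice of day 28, against -2.81, -2.80 and -3.20 in those of day 1, and both genes overlapped. Control mice of day 28 against those of day 1 gave 0 calls of 36, against 0% of all genes, with 1 member at an unadjusted p under 0.05 (2.78%, against 5% of all genes). This was Ccne1, at -1.66, -1.89 and -2.04 in the control mice of day 28, against -1.61, -1.03, -1.82 and -1.63 in those of day 1, which overlap (log2 change -0.34, adjusted p = 0.777). Next was Melk, at -2.80, -2.92 and -2.94 in the control mice of day 28, against -2.69, -2.65, -2.70 and -2.33 in those of day 1, all lower at day 28 but not past the test (log2 change -0.30, adjusted p = 0.777). Such separation was seen in 1 of 36 members and in 1392 of the 23255 genes tested. Of these control mice 0 of 3 at day 28 and 4 of 4 at day 1 had a muscle array.

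Other genes of the pathway at 162 µg against control, day 1, are given from lists that hold no member. Of 19 tested helicase and licensing genes 10 rose and 0 fell, with a median log2 change of 0.78, among them Uhrf1, which maintains DNA methylation at forks (1.43, adjusted p = 0.00178), the helicase subunits Mcm2 (1.19, 8.06e-06) and Mcm3 (1.16, 0.000112), and Rrm2, the partner of Rrm1 (1.07, 0.000559). Of 27 DNA polymerase, clamp loader and repair genes 16 rose and 0 fell, with a median of 0.56, among them the chromatin assembly gene Chaf1b (1.07, 0.00044), the exonuclease Exo1 (0.81, 0.000599) and the clamp loader Rfc4 (0.75, 0.017). Of 46 other mitosis genes 9 rose and 0 fell, with a median of 0.26, among them the centromere genes Cenpk (0.93, 0.000502) and Cenph (0.67, 0.0133), the cohesion factor Cdca5 (0.89, 0.00179) and Cks1b, a partner of cyclin-dependent kinases (0.87, 0.000268). Of 20 G1 cyclin, kinase and E2F genes 3 rose, E2f1 (0.87, 0.00244), E2f7 (0.68, 0.00178) and the phosphatase Cdc25a (0.55, 0.0015). Inhibitors of cyclin-dependent kinases and p53 targets gave 0 calls of 17, with a median of -0.05, and growth factors for macrophages and lymphocytes 0 of 9, with a median of 0.25. The number after each log2 change is the adjusted p from limma. In the test of days at 162 µg, Mcm2 (-1.18, adjusted p = 0.013) and Mcm7 (-0.82, adjusted p = 0.034) were lower at day 28.

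Markers of cells that could divide or arrive in the lung were mostly not called in the same comparison, where 1.5% of all genes rose. At most 1 gene per list rose: 1 of 13 for alveolar macrophages, where 1 fell, and 1 of 11 each for monocytes, neutrophils and T cells. In lists this short a single gene is already a larger share than 1.5%. The median log2 changes of these 4 lists were -0.11, 0.27, 0.25 and 0.23. Single markers reached changes as large as those of the members, with ranges of -1.30 to 0.68 for alveolar macrophages, -0.72 to 0.99 for monocytes, -0.52 to 1.01 for neutrophils and 0.06 to 0.90 for T cells. Among T cell markers 11 of 11 had a positive log2 change, and among B cell and germinal centre markers 5 of 11 did, with 0 called. For erythroid precursors 0 of 8 were called, with a median of -0.10. For plasma, NK and dendritic cells it was 0 of 8, 0 of 7 and 0 of 6. Of alveolar type II markers 0 of 10 were called, with a median of -0.03, and of type I markers 1 of 8 rose. For endothelial cells 0 of 12 were called, and 1 of 9 club and ciliated and 1 of 10 fibroblast and mesothelium markers fell. The part of these cells in the members' changes was not tested.

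The tested members moved together across the 29 mice. Each member's Pearson correlation with the mean of the other tested members had a lowest value of 0.31 for Cenpa and a highest of 0.94 for Cdca8, as a description over mice that share dose groups and arrays. Of the genes outside the list, those most like the mean of the tested members were Shcbp1 (r = 0.951), Sgo1, a protector of centromere cohesion (0.943), Cdca5 (0.919), Cdca3 (0.913), Trip13 (0.910), Incenp of the passenger complex (0.909), S100a4 (0.906), the condensin subunit Smc2 (0.890), Cenph (0.885) and Cks1b (0.877). At 162 µg against control, day 1, Shcbp1 had a log2 change of 0.60 (adjusted p = 0.0457) and Sgo1 of 0.44 (adjusted p = 0.258).

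Some members had further probes, which did not all show the same change. For Mki67 the second probe had a log2 change of 0.70 at 162 µg against control, day 1, beside 0.62 for the probe used. For Birc5 it had 0.32 beside 0.73, and for Cdca8 0.04 beside 0.50, on probes above background on 36 and 31 arrays. For Tpx2 the second probe, above background on 22 arrays, had -0.06 beside 0.53. None of these 4 genes passed the test in that comparison, and none of the 8 that did had a further probe. At 162 µg against 18 µg, where Birc5, Mki67 and Tpx2 rose, the second probes had 0.57 beside 1.21 for Birc5, 1.05 beside 1.02 for Mki67 and 0.10 beside 0.76 for Tpx2.

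The promoters of the members are shown because replication and mitosis genes are known to carry different elements. E2F sites are known from genes of S phase, and the CHR element and CCAAT boxes from genes of G2 and mitosis. Sequences are from RefSeq on GRCm38.p6, and a window of 250 bases before to 50 after the start was held for 32 of the 40 members, in 36 windows. An E2F word (TTTCCCGC, TTTGGCGC or TTTCGCGC, either strand) is in capitals in these stretches of 30 bases, written on the strand of the gene.
Cdt1: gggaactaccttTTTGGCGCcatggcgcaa
Lig1: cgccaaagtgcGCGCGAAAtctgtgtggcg
Cdc6: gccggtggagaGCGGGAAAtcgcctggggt
They lie at chr8:122568035-122568064 (+), chr7:13278841-13278870 (+) and chr11:98908002-98908031 (+). The first base of the word is at 33, 27 and -138 from the start, and the Lig1 stretch is from the second of its 3 windows. Cdt1 and Lig1 rose at 162 µg, and Cdc6 was not tested.

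CCAAT, and for the last 3 also the CHR word (TTTGAA or TTTAAA), is in capitals in the 100 bases before the start of these members. Rrm1 and Spc25 rose at 162 µg against control at day 1, and Cdc20, Plk1 and Ccnb1 did not pass.
Rrm1: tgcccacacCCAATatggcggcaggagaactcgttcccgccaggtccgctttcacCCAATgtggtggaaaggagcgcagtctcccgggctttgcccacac
Spc25: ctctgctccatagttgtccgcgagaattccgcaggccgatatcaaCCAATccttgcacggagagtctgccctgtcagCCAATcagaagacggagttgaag
Cdc20: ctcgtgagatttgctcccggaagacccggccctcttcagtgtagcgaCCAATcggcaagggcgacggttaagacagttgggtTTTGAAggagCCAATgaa
Plk1: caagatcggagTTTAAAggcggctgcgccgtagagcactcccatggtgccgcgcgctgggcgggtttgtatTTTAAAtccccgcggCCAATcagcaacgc
Ccnb1: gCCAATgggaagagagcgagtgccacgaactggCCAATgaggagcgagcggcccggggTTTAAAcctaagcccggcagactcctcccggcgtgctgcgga
They lie at chr7:102441595-102441694 (+), chr2:69206214-69206313 (-), chr4:118437344-118437443 (-), chr7:122159335-122159434 (+) and chr13:100786487-100786586 (-). Spc25 also holds a CHR word 25 bases into the transcript. TTTAAA reads the same on both strands, and no E2F word holds a CHR or CCAAT word.

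Counted over whole windows and both strands, a CHR word was in 2 of 10 windows of replication members (20%) and 22 of 26 windows of the other members (84.6%), against 27.6% of 32851 windows of all promoters. CCAAT was in 1 of 10 (10%) and 19 of 26 (73.1%), against 37.4% of all. An E2F word was in 3 of 10 (30%) and 1 of 26 (3.85%), against 1.84% of all. That 1 is Cdk1, whose window also holds a CHR word and CCAAT. Counted by gene, a CHR word was in 2 of 7 replication members (28.6%) and 21 of 25 others (84%). The share was 30.6% of all genes, near that of the replication members. For CCAAT the 3 shares by gene were 14.3%, 72% and 41.1%, and for an E2F word 42.9%, 4% and 2.12%. Of the members that rose, Fen1 and Spc25 have a CHR word, and Rrm1 and Spc25 have CCAAT. Gins1, Gins2, Pbk, Ccna2, Tpx2, Kif20a, Ccne2 and Aurkb had no window in the table used. A word in a window is a match of letters only.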

How the data were processed

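The arrays measured lung RNA (Cy5) against a reference RNA (Cy3). The deposited files hold spot intensity values from Agilent Feature Extraction 11.0.1.1, per the file headers, and a deposited table of log2 ratios made by the authors, whose centring and further steps are not given in the sources used here. Its column medians were -0.0388 to -0.0175 and it correlated at 0.986 to 0.997 with the ratios used here, with lung over reference as its direction. It served as an alternative.

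With limma 3.58.1 in R 4.3.3, spot medians were background-corrected (normexp, offset 50) and loess-normalized within arrays. Control spots had weight 0 and outlier-flagged spots were left out; 0 spots were saturated. Spots of a probe and arrays of a mouse were averaged, and each gene was read through its brightest probe. A gene was tested if 3 or more mice of some group had it well above background in Cy5 on all their arrays. A single limma model with a mean per group over 29 mice (21 residual and 2.9 prior degrees of freedom) gave 12 comparisons, two-sided, each adjusted by Benjamini-Hochberg over all 23255 genes, with a threshold of 0.05. No dyes were swapped, so a dye effect is shared by all mice. The number of arrays limits the precision.

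The 40 members, the other gene lists and the tests were chosen with earlier results of these data known. Values of every mouse are given for the 10 tested members of smallest p for 162 µg against control, day 1, and the 2 of smallest p in each other comparison; Tk1, Tyms and Mki67 were added after their values were seen. Up to 4 called genes of each other list were named, by the size of the change, and the 10 genes most like the members' mean. One result is not reported here. Muscle and squamous arrays are those with a mean log2 Cy5 over 9 for the muscle list and over 8 for the squamous list. The limma script was tested on simulated data.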

Additional observations from a re-analysis of the deposited data

Results flagged for a closer look

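Each group of 4 mice was searched for a mouse far from the other 3 (past Dixon's 95% critical value), in each of the 36 tested members and in their mean. Such a mouse was found in 11 of 185 cases, and chance gives about 1 in 20. The values are log2(lung/reference). The 162 µg mouse of day 1, replicate 3, which has muscle and squamous transcripts, accounted for 4 of them. It was high in Tyms (1.41, the others -0.57 to -0.90), in Ccnb1 (-2.85, the others -3.37 to -3.47) and in Nusap1 (-2.36, the others -2.91 to -3.01), and low in Rrm1 (-2.36, the others -2.13 to -2.11).

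Among control mice of day 1, replicate 2 was high in Gins1 (-2.12, the others -2.68 to -2.72) and low in Bub1b (-3.34, the others -3.08 to -3.05). Replicate 3 was low in Cenpa (-2.90, the others -2.62 to -2.56), and replicate 4 was high in Melk (-2.33, the others -2.65 to -2.70). At day 28, the 54 µg mice held replicate 1 with high Ccne1 (-1.61, the others all at -1.77) and replicate 3 with high Cenpa (-1.75, the others -2.64 to -2.70). The 18 µg mouse replicate 3 was low in Plk1 (-2.57, the others -2.39 to -2.38).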

How the results depend on the processing

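Over 46 alternatives (17 settings and 29 that leave out 1 mouse), no result turned its sign past the threshold. Cdt1 and Fen1 stayed called in 46 of 46, Pbk in 45 of 45 and Lig1 in 45 of 46 for 162 µg against control, day 1. The count of 8 members there was 3 when the fit held just the pair of groups, 13 from Cy5 alone, 15 with array quality weights and 14 without the squamous arrays, and 6 to 10 without 1 mouse. The count of 0 for 162 µg against 54 µg was 2 from Cy5 alone and with a normexp offset of 16, 5 with muscle and squamous covariates, 6 without the squamous arrays, 11 without the muscle arrays and with the mouse as a random block, 25 with quality weights, and 0 to 7 without 1 mouse. The count of 19 for 162 µg against 18 µg was 4 with median centring, 6 when the fit held just the pair, 9 when the mouse whose labels conflict was counted under day 1, and 7 to 22 without 1 mouse. At day 28 quality weights gave 2 members at 162 µg and 1 at 54 µg. In the test of days they gave 7 at 162 µg and 10 at 54 µg. There the random block gave 3 at 162 µg, and leaving out 1 mouse gave 0 to 1 at 162 µg. The random block fit put the correlation between arrays of a mouse at -0.03, so it counted repeat arrays almost as separate mice. The cause of these differences was not tested, and fits that leave some mice out also hold fewer mice. The setting without squamous arrays was chosen after seeing the data. No paired analysis was possible because the replicate numbers were given in accession order and pair no mice. Slides, which each held mice of several groups, were used as a block instead. Slides 3 and 4, which share mice, made a single block, so a shift between them was not fitted. With this block 10 and 16 members were called for 162 µg against control and against 18 µg at day 1. Dim members are limited by signal over background.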
